A study of Mus musculus with 28 samples.

Results

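Liver sinusoidal endothelial cells were followed in whole-liver RNA through 10 marker genes, Clec4g, Stab1, Stab2, Oit3, Kdr, Pecam1, Lyve1, Fcgr2b, Bmp2 and Dnase1l3. They are a marker list taken by symbol from the 36072 gene symbols counted, and all 10 were among the 9684 genes with enough counts to be tested. Livers came from 7 Mif-2-/- Apoe-/- mice, which lack Mif-2 (gene symbol Ddt) and Apoe, and from 7 Apoe-/- mice. All 14 mice were 8 weeks old when the diet began and ate a high-fat diet for 12 weeks. The paper's main 12-week liver comparison was of female mice. It also studied males, and it does not state the sex of the mice sequenced here. Both genes were deleted throughout the body, so neither loss was limited to the liver or to the endothelium, and the Apoe deletion was shared by both groups, including the mice that the labels call WT. The RNA was read by prime-seq, which tags each transcript near its 3' end, in 2 libraries per mouse that were summed.

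Sinusoidal endothelial cells line the capillaries of the liver as a sheet pierced by open pores, without a continuous basement membrane, so that plasma reaches the hepatocytes directly. They are the scavenging endothelium of the body and take up hyaluronan, modified lipoproteins and immune complexes through receptors such as the stabilins and an Fc receptor. They also secrete signals to their neighbours, among them the BMP ligands that set hepcidin synthesis, and they lose pores and scavenger receptors and gain large-vessel features when they capillarise.

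The start-site regions of 3 of the genes are shown because Clec4g had the largest positive difference of the 10 between the groups, Stab2 a negative one, and Kdr the lowest correlation with Stab2 across mice. They are RefSeq sequences on GRCm38.p6, from 250 bases before to 50 bases after the annotated start, and each is on the minus strand of the genome. Capitals mark a match to a searched motif. The regions are chr8:3720602-3720901 for Clec4g, chr5:75978406-75978705 for Kdr and chr10:87007893-87008192 for Stab2.
Clec4g: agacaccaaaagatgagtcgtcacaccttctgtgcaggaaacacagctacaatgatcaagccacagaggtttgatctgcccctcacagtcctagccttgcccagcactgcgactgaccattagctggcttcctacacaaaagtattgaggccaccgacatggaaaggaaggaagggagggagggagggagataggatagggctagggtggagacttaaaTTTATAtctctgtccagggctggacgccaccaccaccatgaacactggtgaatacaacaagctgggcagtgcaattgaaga
Kdr: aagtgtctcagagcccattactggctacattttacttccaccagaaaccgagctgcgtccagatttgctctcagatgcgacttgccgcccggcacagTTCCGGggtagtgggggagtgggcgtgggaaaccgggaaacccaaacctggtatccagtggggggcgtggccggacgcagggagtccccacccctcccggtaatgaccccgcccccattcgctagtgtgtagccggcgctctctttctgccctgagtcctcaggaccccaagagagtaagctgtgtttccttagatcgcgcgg
Stab2: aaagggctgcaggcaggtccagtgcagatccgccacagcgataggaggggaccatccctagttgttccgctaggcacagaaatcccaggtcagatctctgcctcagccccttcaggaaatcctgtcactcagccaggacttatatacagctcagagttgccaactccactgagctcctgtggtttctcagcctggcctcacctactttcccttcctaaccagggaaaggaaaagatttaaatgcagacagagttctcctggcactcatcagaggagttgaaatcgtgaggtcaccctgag
The capitals in Clec4g are TTTATA, the reverse complement of the TATA box letters TATAAA, at 31 to 26 bases before the start. Those in Kdr are TTCCGG, the reverse complement of the ETS core CCGGAA, at 153 to 148 bases before it. Stab2 held neither of these motifs nor GATAA, the core of the GATA site. Both strands were searched in the same window of 32851 promoters, of which 13.6% held TATAAA, 14.9% held CCGGAA and 25.4% held GATAA. Of the 10 markers, 5 had a promoter in this set (Clec4g, Kdr, Stab1, Stab2 and Fcgr2b), with CCGGAA in 1, TATAAA in 1 and GATAA in 0. The Kdr window was 60.7% GC with 19 CpG, against 51.0% with 4 CpG for Clec4g and 53.0% with 4 CpG for Stab2, where the median of all promoters was 52.7% GC. A match is a run of letters and not a site shown to be bound.

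Each mouse had 1336787 to 2715022 counts in the Mif-2-/- Apoe-/- group and 1467689 to 2433432 in the Apoe-/- group. Ddt, the deleted gene, had 5 to 12 counts in Mif-2-/- Apoe-/- mice and 84 to 316 in Apoe-/- mice, so its level followed the labels in all 14. Ribosomal RNA took 32.4 ± 10.2% of counts in Mif-2-/- Apoe-/- mice and 33.7 ± 8.20% in Apoe-/- mice (SD, n = 7 each). Mif-2-/- Apoe-/- mouse 2 had the highest ribosomal RNA share, 51.8%, with the lowest total, and Mif-2-/- Apoe-/- mouse 4 the lowest share, 17.7%, with the highest total. The 10 markers summed to 188 to 744 counts in Mif-2-/- Apoe-/- mice and 225 to 664 in Apoe-/- mice, so single genes rested on 7 to 139 counts a mouse. Between the 2 libraries of a mouse, chi-squared per degree of freedom, which is 1 for pure counting error, lay between 0.53 and 1.45 for the markers. Between mice of a group it lay between 0.98 for Stab1 and 4.21 for Clec4g. Levels are given as CPM, counts scaled to 1 fixed library size with TMM factors, and log2 fold changes as Mif-2-/- Apoe-/- over Apoe-/-. These are values of bulk tissue, in which fewer sinusoidal cells and less RNA per cell cannot be told apart.

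None of the 10 markers was called between the genotypes by the edgeR quasi-likelihood test (adjusted p below 0.05 over all genes tested), where 0.217% of all genes were called (0.134% higher and 0.0826% lower). The log2 fold change was positive for 7 and negative for 3, where 51.5% of all genes tested were positive. The median was 0.32, against 0.01 for all genes tested. Neither was tested, and the markers were chosen with earlier results of these data known. At an unadjusted p below 0.05 there were 4, with Clec4g, Fcgr2b and Oit3 higher and Lyve1 lower in Mif-2-/- Apoe-/- mice, where 12.9% of all genes passed (7.37% higher and 5.49% lower). That number was 2 when Mif-2-/- Apoe-/- mouse 5, Mif-2-/- Apoe-/- mouse 7 or Apoe-/- mouse 7 was left out, and 6 without Mif-2-/- Apoe-/- mouse 2 or Apoe-/- mouse 5. The share of all genes at this unadjusted p was counted for the fit of all mice only. In these smaller fits edgeR called 9 to 118 of all genes, so the marker counts have no matched background. DESeq2 gave an adjusted p for 4 of the 10 (Stab1, Stab2, Kdr and Dnase1l3) and called 0, where 2.1% of the genes with one were called. The 3 markers with an unadjusted p below 0.05, Clec4g, Fcgr2b and Lyve1, were given no adjusted p, so DESeq2 could not call them. For DESeq2 the share of all genes at that unadjusted p was not counted. No marker had groups that did not overlap, a pattern seen in 0.279% of all genes.

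**Figure D1:**
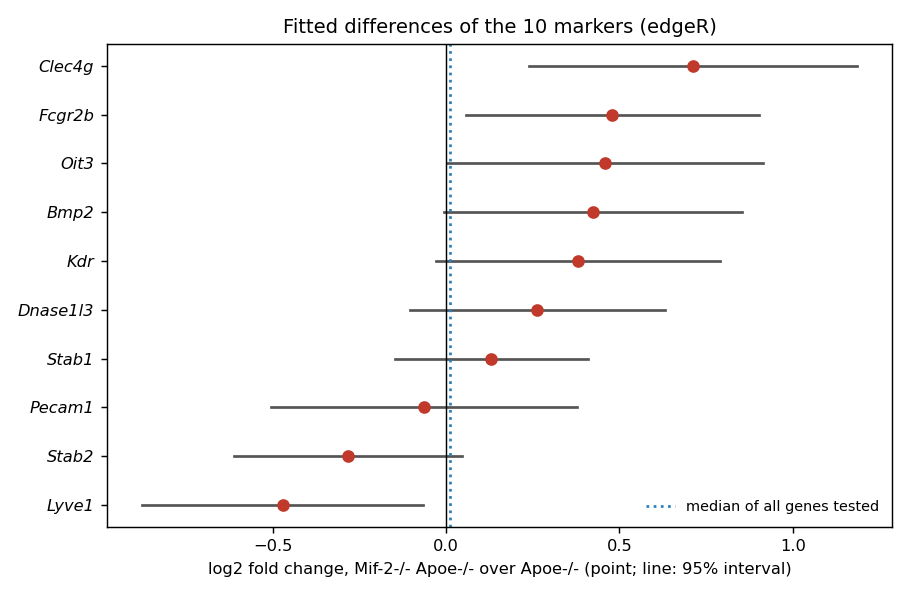
The log2 fold change of each of the 10 markers in Mif-2-/- Apoe-/- over Apoe-/- livers (points) with its 95% interval (lines) from the edgeR fit, 7 mice per group. The points run between 0.71 for Clec4g and -0.47 for Lyve1, and no marker had an adjusted p below 0.05.

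Clec4g (chr8:3707064-3720651, mm10, minus strand), a C-type lectin of sinusoidal endothelium in liver and lymph node, stood at the positive end. It had 14.0, 20.6 and 37.7 CPM (lowest, median and highest) in Mif-2-/- Apoe-/- mice, against 8.82, 12.7 and 18.3 CPM in Apoe-/- mice. All 7 Mif-2-/- Apoe-/- mice lay above the Apoe-/- mean and 4 lay above every Apoe-/- mouse, so the groups overlapped in part. Its mean was 21.9 ± 8.37 CPM in Mif-2-/- Apoe-/- mice and 13.6 ± 3.76 CPM in Apoe-/- mice (SD, n = 7 each), a log2 fold change of 0.71 ± 0.23 (SE), or 1.64-fold with a 95% interval of 1.18 to 2.27. The adjusted p by edgeR was 0.198, with an unadjusted p of 0.00507. The highest value belonged to Mif-2-/- Apoe-/- mouse 4, the mouse with the most counts, and the log2 fold change without that mouse was 0.51.

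**Figure D2:**
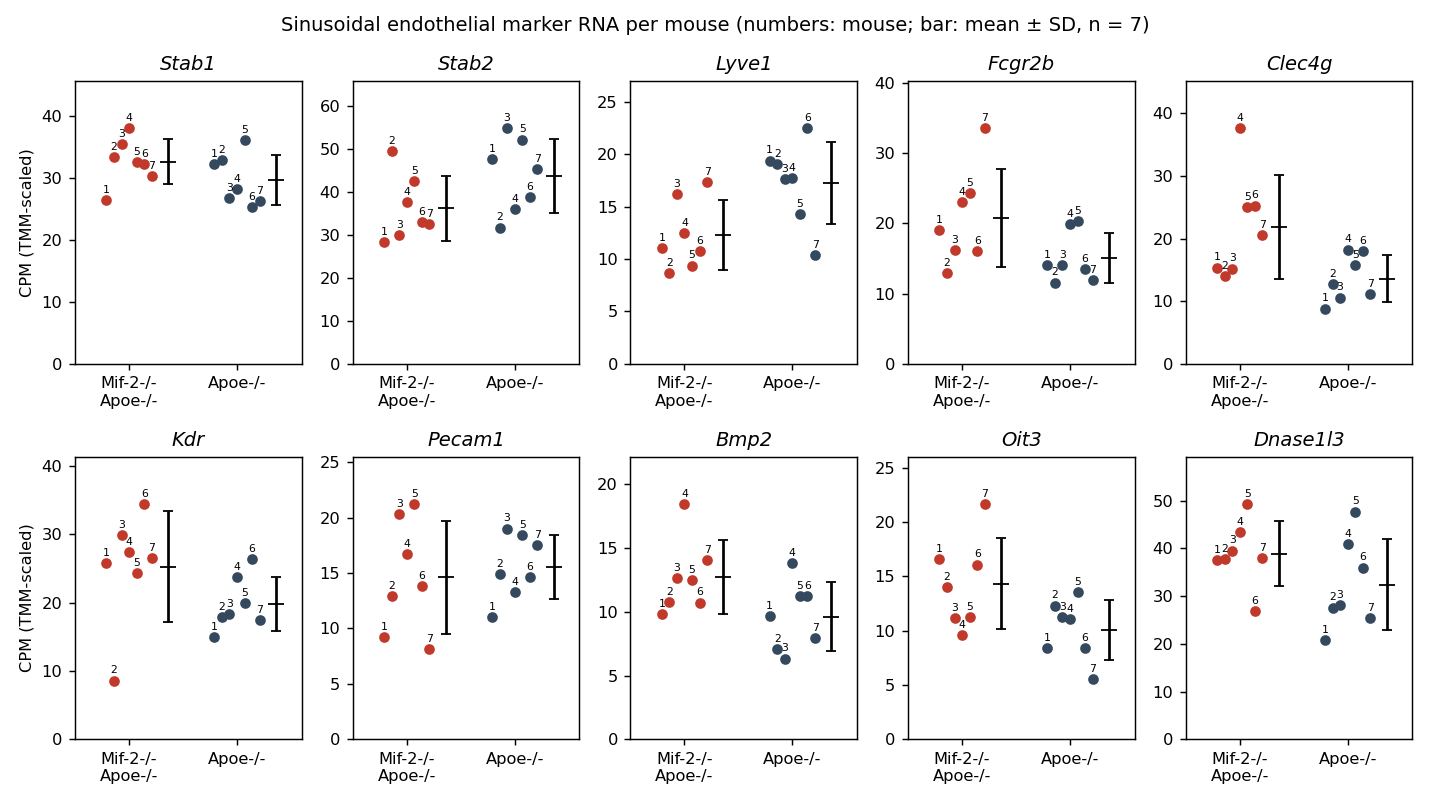
CPM of the 10 markers in each of 7 Mif-2-/- Apoe-/- mice and 7 Apoe-/- mice (points, numbered by mouse), with the group mean and SD (bars). The groups overlap in every panel. Clec4g reaches 37.7 CPM in Mif-2-/- Apoe-/- mice, and Kdr of Mif-2-/- Apoe-/- mouse 2 lies at 8.61 CPM, under the other mice.

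Among the scavenger receptors, the values lay on both sides. Stab1 and Stab2, the giant stabilins, clear modified proteins and lipoproteins, and Stab2 is the main endocytic receptor for hyaluronan. Stab2 (chr10:86841198-87008025, minus strand) had 28.3, 32.9 and 49.5 CPM in Mif-2-/- Apoe-/- mice and 31.7, 45.3 and 54.9 CPM in Apoe-/- mice. It lay under the Apoe-/- mean in 6 of 7 Mif-2-/- Apoe-/- mice, with broad overlap. The means were 36.2 ± 7.59 CPM in Mif-2-/- Apoe-/- mice and 43.8 ± 8.59 CPM in Apoe-/- mice, and the log2 fold change was -0.28 with a 95% interval of -0.61 to 0.04 (edgeR adjusted p = 0.440).

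Stab1 (chr14:31139013-31168641, minus strand) had 26.4, 32.5 and 38.0 CPM in Mif-2-/- Apoe-/- mice and 25.3, 28.2 and 36.1 CPM in Apoe-/- mice. The ranges nearly coincided, and the log2 fold change of 0.13 had a 95% interval of -0.15 to 0.41 (edgeR adjusted p = 0.690). Its spread between mice was about that of counting error. The 3' end of Stab1 overlaps that of Nt5dc2 on the other strand. Whether strand was used is not given in the sources used here, so reads of the overlap cannot be assigned with certainty, and Nt5dc2 itself had 102 counts over all mice where Stab1 had 825.

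Lyve1, a hyaluronan receptor also carried by lymphatic endothelium and some macrophages (chr7:110850607-110863239, minus strand), stood at the negative end. It had 8.61, 11.1 and 17.3 CPM in Mif-2-/- Apoe-/- mice and 10.3, 17.7 and 22.5 CPM in Apoe-/- mice. All but 1 of the Mif-2-/- Apoe-/- mice lay under the Apoe-/- mean, and 5 of the 7 Apoe-/- mice lay above every Mif-2-/- Apoe-/- mouse. The means were 12.3 ± 3.34 CPM in Mif-2-/- Apoe-/- mice and 17.3 ± 3.92 CPM in Apoe-/- mice, with a log2 fold change of -0.47 ± 0.20 (SE), a 95% interval of -0.88 to -0.07, an unadjusted p of 0.0246 and an edgeR adjusted p of 0.306. Leaving out each mouse in turn gave -0.57 to -0.40.

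Fcgr2b, the inhibitory IgG receptor that takes small immune complexes into sinusoidal cells (chr1:170958617-170976547, minus strand), had 12.9, 19.1 and 33.6 CPM in Mif-2-/- Apoe-/- mice and 11.6, 14.1 and 20.3 CPM in Apoe-/- mice. It exceeded the Apoe-/- mean in 6 of 7 Mif-2-/- Apoe-/- mice and every Apoe-/- mouse in 3. The log2 fold change was 0.48 ± 0.20 (SE) with a 95% interval of 0.06 to 0.90, and the edgeR adjusted p was 0.320 (unadjusted 0.0284). Fcgr2b is also expressed by B cells and macrophages, whose other markers are given with the lists.

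Of the vascular receptors, Kdr encodes VEGF receptor 2, through which VEGF maintains sinusoidal endothelium, and Pecam1 encodes a junctional adhesion protein of all endothelium. Kdr (chr5:75932827-75978458, minus strand) had 8.61, 26.5 and 34.5 CPM in Mif-2-/- Apoe-/- mice and 15.0, 18.3 and 26.4 CPM in Apoe-/- mice. Mif-2-/- Apoe-/- mouse 2 lay under every other mouse, and 4 Mif-2-/- Apoe-/- mice lay above every Apoe-/- mouse. The estimate was 0.38 ± 0.20 on the log2 scale (SE; edgeR adjusted p = 0.409), and 0.50 without mouse 2 (adjusted p = 0.0931). Pecam1 (chr11:106654217-106750628, minus strand) had 8.13, 13.8 and 21.2 CPM in Mif-2-/- Apoe-/- mice, a range that took in the 11.0, 14.9 and 19.0 CPM of Apoe-/- mice. Its log2 fold change of -0.06 had a 95% interval of -0.51 to 0.38 (edgeR adjusted p = 0.921), so folds of 0.70 to 1.30 lay within it.

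The secreted products were Bmp2, a ligand of the hepcidin pathway made by sinusoidal cells, Oit3, a zona pellucida domain protein, and Dnase1l3, a secreted DNase that digests chromatin in circulating microparticles. Bmp2 (chr2:133552159-133562885, plus strand) had 9.84, 12.5 and 18.5 CPM in Mif-2-/- Apoe-/- mice and 6.33, 9.70 and 13.8 CPM in Apoe-/- mice. All 7 Mif-2-/- Apoe-/- mice were above the Apoe-/- mean, yet only 2 were above every Apoe-/- mouse. Its log2 estimate was 0.42 ± 0.21 (SE), and its edgeR adjusted p was 0.391. Oit3 (chr10:59422958-59441778, minus strand) had 9.59, 14.0 and 21.7 CPM in Mif-2-/- Apoe-/- mice, of which 4 lay above every Apoe-/- mouse, and 5.57, 11.1 and 13.5 CPM in Apoe-/- mice. The fit gave it 0.46 ± 0.22 on the log2 scale (SE), with an unadjusted p of 0.0491 and an edgeR adjusted p of 0.384. Dnase1l3 (chr14:7964533-7994573, minus strand) had 26.8, 37.9 and 49.3 CPM in Mif-2-/- Apoe-/- mice and 20.7, 28.1 and 47.7 CPM in Apoe-/- mice. Its ranges overlapped almost wholly, and its log2 estimate of 0.26 ± 0.18 (SE) had an edgeR adjusted p of 0.526.

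Summed over the 10 markers, the level was 230 ± 24.8 CPM in Mif-2-/- Apoe-/- mice (199 to 264) and 207 ± 24.7 CPM in Apoe-/- mice (179 to 249). The ranges of the sum overlapped, and the sum was not tested between the groups. Its makeup varied between mice. Lyve1 and Stab2, the hyaluronan receptors, made up 21.3 ± 3.34% of the markers' counts in Mif-2-/- Apoe-/- mice and 29.8 ± 4.43% in Apoe-/- mice. The share was 28.7% in Mif-2-/- Apoe-/- mouse 2, within the Apoe-/- range of 24.1% to 35.8%, and at most 20.5% in the other Mif-2-/- Apoe-/- mice, below that range. The counts of Clec4g over those of Lyve1 gave a ratio of 0.94, 1.63 and 3.03 (lowest, median and highest) in Mif-2-/- Apoe-/- mice and 0.45, 0.80 and 1.11 in Apoe-/- mice. Stab1 over Stab2 was 0.93 ± 0.17 in Mif-2-/- Apoe-/- mice and 0.70 ± 0.17 in Apoe-/- mice. These sums of genes and ratios were chosen after the single values had been seen and are given as descriptions. Clec4g and Lyve1 had the most positive and the most negative estimates of the 10, and Lyve1 and Stab2 both had negative ones. A difference between groups was thus built into these measures by the choice of genes. The groups overlapped in each of them, and they do not show that any gene differed. The sums and ratios were also set beside the ribosomal RNA share. Over the 14 mice centred on their group means, Pearson r with that share was 0.70 for the Lyve1 and Stab2 share, -0.38 for Clec4g over Lyve1 and -0.63 for Stab1 over Stab2. For the Lyve1 and Stab2 share it was 0.89 in Mif-2-/- Apoe-/- mice, where mouse 2 (51.8% ribosomal RNA) had the highest share and mouse 4 (17.7%) the lowest, and 0.56 in Apoe-/- mice (n = 7 each). For Clec4g over Lyve1 it was -0.52 in Mif-2-/- Apoe-/- mice but 0.04 in Apoe-/- mice. For Stab1 over Stab2 it was -0.56 in Mif-2-/- Apoe-/- mice and -0.73 in Apoe-/- mice. The part of ribosomal RNA in these compositions was not tested.

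**Figure D3:**
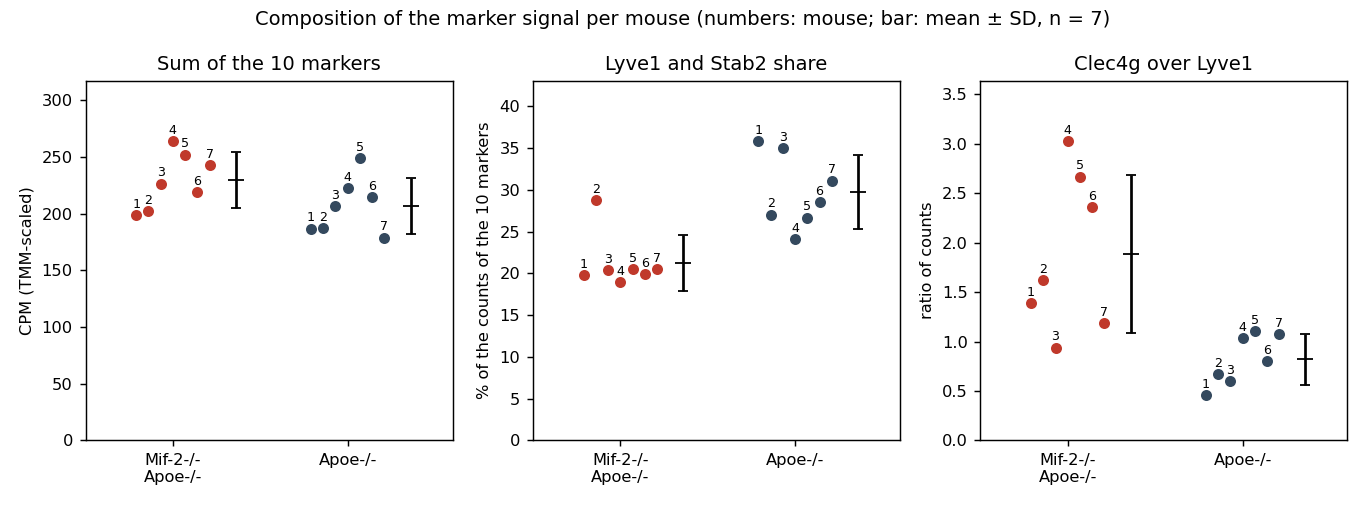
Left, the 10 markers' summed CPM. Middle, the percentage of the markers' counts that were Lyve1 or Stab2. Right, the counts of Clec4g over those of Lyve1. Each point is a mouse, with the mean and SD of 7 Mif-2-/- Apoe-/- and 7 Apoe-/- mice. The sums lie at 199 to 264 CPM in Mif-2-/- Apoe-/- mice and 179 to 249 CPM in Apoe-/- mice, and the Lyve1 and Stab2 share at 19.0% to 28.7% in Mif-2-/- Apoe-/- mice and 24.1% to 35.8% in Apoe-/- mice.

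Across the 14 mice, with each group centred on its mean, the markers did not vary as a single block. The 45 pairs of markers had a median Pearson r of 0.13, with 27 positive, and the points share libraries, depth and tissue piece. Clec4g and Bmp2 were the pair most alike (r = 0.66), and Fcgr2b with Bmp2 (0.57), Bmp2 with Dnase1l3 (0.55) and Clec4g with Kdr (0.53) were also alike. Stab2 ran opposite to Kdr (-0.60) and to Lyve1 (-0.49). The value with Kdr was -0.78 in Mif-2-/- Apoe-/- mice and -0.32 in Apoe-/- mice, and -0.32 over all mice without Mif-2-/- Apoe-/- mouse 2, which had the highest Stab2 and the lowest Kdr of its group, while that with Lyve1 was then -0.42. Thus the pair of hyaluronan receptors, both lower on average in Mif-2-/- Apoe-/- mice, did not vary together within groups. The mean of the 10 had r = -0.64 with the ribosomal RNA share, 0.58 with the mean of 12 hepatocyte genes and 0.41 with the log10 of total counts. With the means of other lists it was 0.39 for other sinusoidal markers, 0.28 for pan-endothelial genes and 0.31 for macrophage genes. The median r with single genes of at least 10 CPM was -0.02, which is not a matched background for means of lists. The part of ribosomal RNA share and depth in the markers' levels was not tested.

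**Figure D4:**
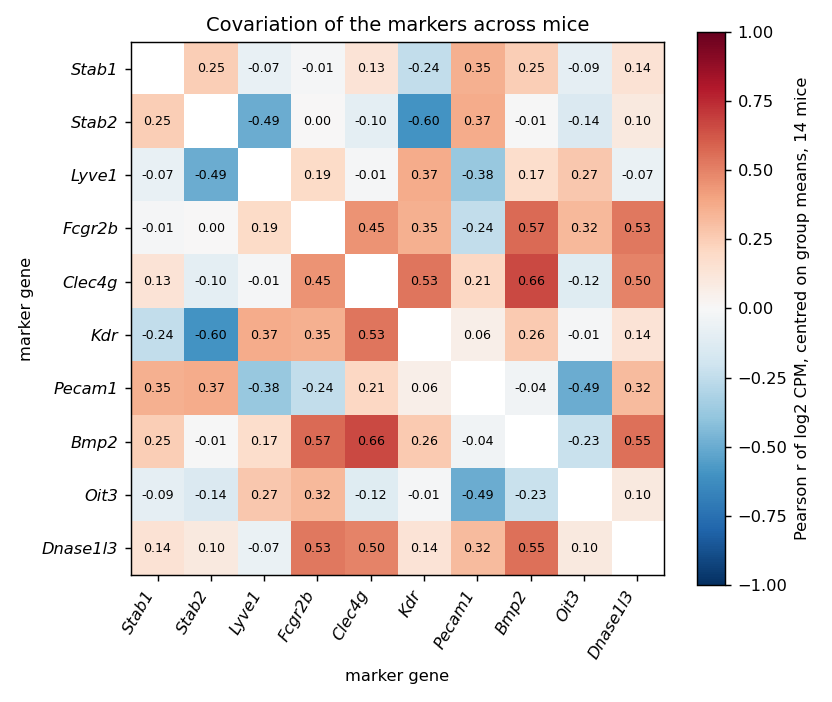
Pearson correlations between the 10 markers over 14 mice, on log2 CPM centred on the group means, with red positive and blue negative. The values run between -0.60 (Stab2 with Kdr) and 0.66 (Clec4g with Bmp2).

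Other genes of sinusoidal and general endothelium are given here by lists that leave out the 10 markers. Of 16 other sinusoidal genes 15 were tested, and edgeR called 0. DESeq2 gave an adjusted p to 10 of the 15 and called 0 of these. The median log2 fold change was 0.20, with 9 positive and 6 negative, and 2 were higher and 3 lower at an unadjusted p below 0.05. Cd302, a lectin shared with macrophages and hepatocytes, had 170, 318 and 532 CPM in Mif-2-/- Apoe-/- mice and 158, 200 and 241 CPM in Apoe-/- mice (log2 fold change 0.72, edgeR adjusted p = 0.207). Bmp6, the main BMP of iron sensing, had 3.06, 5.42 and 14.0 CPM in Mif-2-/- Apoe-/- mice and 6.34, 9.56 and 15.1 CPM in Apoe-/- mice (-0.89, adjusted p = 0.212). Bmp6 was low in most Mif-2-/- Apoe-/- mice, but its highest Mif-2-/- Apoe-/- value lay inside the Apoe-/- range. Gata4, a transcription factor that maintains sinusoidal identity and is also present in stellate cells, had 37.1 ± 15.6 CPM in Mif-2-/- Apoe-/- mice and 55.8 ± 15.9 CPM in Apoe-/- mice (-0.61, adjusted p = 0.259). Mrc1, the mannose receptor, shared with macrophages, exceeded the Apoe-/- mean in 6 of 7 Mif-2-/- Apoe-/- mice, at 67.8 ± 11.5 CPM in Mif-2-/- Apoe-/- mice and 52.6 ± 9.10 CPM in Apoe-/- mice (0.36, adjusted p = 0.295).

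Of 23 pan-endothelial genes 17 were tested and edgeR called 0, with 9 positive and 8 negative and a median log2 fold change of 0.05. At an unadjusted p below 0.05, 3 were higher and 0 lower. S1pr1, the sphingosine-1-phosphate receptor that keeps junctions tight, had 16.2, 26.8 and 32.5 CPM in Mif-2-/- Apoe-/- mice and 12.7, 16.1 and 23.0 CPM in Apoe-/- mice (0.65, adjusted p = 0.143). The water channel gene Aqp1 had 48.5, 62.2 and 106 CPM in Mif-2-/- Apoe-/- mice, all above the Apoe-/- mean, and 33.6, 47.2 and 55.1 CPM in Apoe-/- mice (0.59, adjusted p = 0.143). Cldn5, a tight junction claudin, had 10.9 ± 3.71 CPM in Mif-2-/- Apoe-/- mice and 5.99 ± 1.89 CPM in Apoe-/- mice (0.86, adjusted p = 0.165). The groups overlapped for these 3 genes. DESeq2 called S1pr1 (adjusted p = 0.0435) and Aqp1 (adjusted p = 0.0391) as higher in Mif-2-/- Apoe-/- mice and gave Cldn5 no adjusted p. Of the 17 tested, 9 had an adjusted p from DESeq2. The 106 CPM of Aqp1 was Mif-2-/- Apoe-/- mouse 3, which also carried muscle transcripts, with Acta1, skeletal muscle actin, at 1732 CPM against 13.0 CPM at most in the other mice, and Des, muscle desmin, at 342 CPM. Acta1 was singled out after its values were seen. Mouse 3 had the highest sum of the pan-endothelial list as well, 510 CPM. Without this mouse, a setting chosen after the data were seen, DESeq2 no longer called Aqp1 (0.48, adjusted p = 0.0678). It did call S1pr1 (0.69, adjusted p = 0.0363). Of the 10 markers it called 0 in that setting, but it gave no adjusted p to Oit3, Pecam1, Lyve1 and Bmp2. The lowest it gave was that of Clec4g (adjusted p = 0.0611).

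Genes zoned along the sinusoid and those of large vessels had mostly negative estimates, with 0 called by edgeR or DESeq2 in either list. DESeq2 gave an adjusted p to only 1 of the 4 tested zoned genes and 4 of the 8 tested genes of large vessels. Of 10 zoned endothelial genes only 4 were tested, all 4 negative (median -0.19), with 1 at an unadjusted p below 0.05. That gene was Rspo3, a Wnt enhancer of central veins, at 13.6 ± 3.20 CPM in Mif-2-/- Apoe-/- mice, all 7 under the mean of 18.8 ± 3.29 CPM in Apoe-/- mice (log2 fold change -0.46, edgeR adjusted p = 0.289). Of 16 genes of large vessels and basement membrane 8 were tested, with 1 positive and 7 negative (median -0.21), and 1 lower at an unadjusted p below 0.05. Lama4, a laminin chain of the endothelial basement membrane, had 9.15 ± 4.23 CPM in Mif-2-/- Apoe-/- mice and 14.5 ± 4.50 CPM in Apoe-/- mice (-0.63, adjusted p = 0.335), and Vwf, the clotting adhesin stored in large-vessel endothelium, had a log2 fold change of -0.46. The summed level of this list was 148 to 216 CPM in Mif-2-/- Apoe-/- mice and 175 to 260 CPM in Apoe-/- mice, so the groups overlapped.

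**Figure D5:**
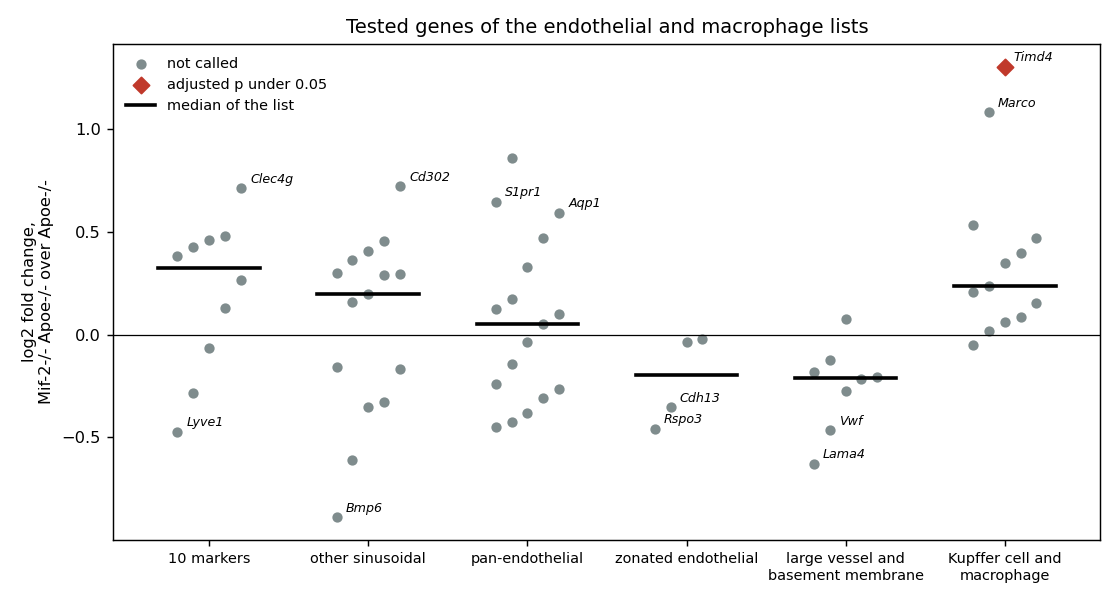
The log2 fold change, Mif-2-/- Apoe-/- over Apoe-/-, of each tested gene in the lists of endothelial and macrophage genes (points), with the median of each list (bars) and the gene with an edgeR adjusted p below 0.05, Timd4, as a diamond. The medians run between 0.32 for the 10 markers and -0.21 for the large vessel list. Names mark the 2 genes of smallest p in each list.

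The pathways in which the markers act were read in the same fit. Of 21 tested genes of BMP and hepcidin signalling other than Bmp2, edgeR called 0, with 14 positive and 7 negative, a median log2 fold change of 0.10, and 3 higher and 1 lower at an unadjusted p below 0.05. Hamp, the hepcidin gene that hepatocytes express under BMP control, had 324, 541 and 1227 CPM in Mif-2-/- Apoe-/- mice and 137, 237 and 492 CPM in Apoe-/- mice. All 7 Mif-2-/- Apoe-/- mice exceeded the Apoe-/- mean, with a log2 fold change of 1.06 ± 0.31 (SE, edgeR adjusted p = 0.162). The highest was Mif-2-/- Apoe-/- mouse 4. Hamp was the 1 gene that DESeq2 called (adjusted p = 0.0499), of 11 in the list to which it gave an adjusted p. Bmp2 and Bmp6, the endothelial ligands, thus had estimates of opposite sign, 0.42 and -0.89, neither of them called. Id2, a BMP target, had 153 ± 34.3 CPM in Mif-2-/- Apoe-/- mice and 110 ± 16.7 CPM in Apoe-/- mice (0.48, adjusted p = 0.206). Of the VEGF axis other than Kdr, 7 ligands and receptors (4 positive, 3 negative) and the phospholipase Plcg1 were tested, with 0 called by either tool and 0 at an unadjusted p below 0.05. DESeq2 gave an adjusted p to 4 of these 8 genes. Vegfc, a VEGF ligand that acts on Flt4 and Kdr, had 7.33 ± 3.16 CPM in Mif-2-/- Apoe-/- mice and 9.62 ± 2.24 CPM in Apoe-/- mice (-0.40, adjusted p = 0.503). Of 5 other Fc receptor genes 0 were called by either tool and 0 had an unadjusted p below 0.05, and only 2 had an adjusted p from DESeq2. Of 9 other genes of hyaluronan and stabilin ligands 0 were called by either tool, and 7 had an adjusted p from DESeq2. At an unadjusted p below 0.05 there was 1, Tgfbi, a stabilin ligand (0.39, edgeR adjusted p = 0.331).

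Markers of other liver cells were read beside these genes. Of 13 tested macrophage genes 12 were positive, with a median of 0.24, and Timd4, a phosphatidylserine receptor of resident Kupffer cells, rose to 14.9 ± 4.58 CPM in Mif-2-/- Apoe-/- mice, against 6.2 ± 3.07 CPM in Apoe-/- mice (log2 fold change 1.30 ± 0.27 (SE), edgeR adjusted p = 0.0373, with no adjusted p from DESeq2). The fit without each mouse in turn gave Timd4 1.15 to 1.51 and an adjusted p of 0.0156 to 0.136, with no call without Mif-2-/- Apoe-/- mouse 1, 4, 6 or 7, without Apoe-/- mouse 1, 2, 3, 4 or 6, or with library totals as the scale (0.0679). At an unadjusted p below 0.05 by edgeR, 4 of the 13 were higher and 0 lower, where 7.37% of all genes were higher. Beside Timd4 they were Marco (1.08, adjusted p = 0.150), Clec4f (0.53, adjusted p = 0.246) and Adgre1 (0.40, adjusted p = 0.367). The macrophage list summed to 834 to 1909 CPM in Mif-2-/- Apoe-/- mice and 949 to 1349 CPM in Apoe-/- mice. The 6 B cell genes summed to 11.5 to 27.9 CPM in Mif-2-/- Apoe-/- mice and 7.16 to 20.2 CPM in Apoe-/- mice, and the 8 T and NK cell genes to 8.12 to 11.9 CPM in Mif-2-/- Apoe-/- mice and 4.41 to 21.6 CPM in Apoe-/- mice. Ighm, the 1 B cell gene tested, had 14.8 ± 5.17 CPM in Mif-2-/- Apoe-/- mice and 9.11 ± 3.52 CPM in Apoe-/- mice. Its log2 fold change was 0.66 (edgeR unadjusted p = 0.0157, adjusted p = 0.268). Macrophages and B cells share Fcgr2b and, in part, Lyve1, Stab1 and Mrc1 with the endothelium, and their part in those values was not tested. Platelet genes, which share Pecam1, summed to 4.92 to 39.1 CPM in Mif-2-/- Apoe-/- mice and 7.16 to 15.7 CPM in Apoe-/- mice. No gene of these lists was at 0 in all mice.

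Immediate early genes, which respond within minutes to many stimuli, had positive estimates. All 7 tested immediate early genes had a positive log2 fold change, with a median of 0.98, and Zfp36, which destabilises cytokine mRNAs, rose to 29.4 ± 9.07 CPM in Mif-2-/- Apoe-/- mice, against 14.8 ± 2.62 CPM in Apoe-/- mice (edgeR adjusted p = 0.0235). At an unadjusted p below 0.05, 6 of the 7 were higher by edgeR, where 7.37% of all genes were higher. Fos had the largest estimate (2.10, edgeR adjusted p = 0.0504) and was not called. DESeq2 called 3 (Zfp36, Junb and Egr1) of the 5 to which it gave an adjusted p, where 2.1% of all genes with one were called. Zfp36 kept 0.87 to 1.07 on the log2 scale without each mouse in turn, at an adjusted p of 0.0114 to 0.0792, and was not called without Mif-2-/- Apoe-/- mouse 1, 6 or 7, without Apoe-/- mouse 1, 3, 4 or 6, with library totals (0.0844), or in the first (0.150) or the duplicate library alone (0.0972). That list summed to 130 to 314 CPM in Mif-2-/- Apoe-/- mice and 82.9 to 199 CPM in Apoe-/- mice, and the markers' mean had r = 0.00 with it across mice. Its part in the endothelial values was not tested. Neutrophil and monocyte genes stood apart in Mif-2-/- Apoe-/- mouse 4, which reached 1909.5 CPM, and in Mif-2-/- Apoe-/- mouse 6, at 485 CPM, where the Apoe-/- mice had 94.0 to 145 CPM. Most of this was Lcn2, which hepatocytes also make in the acute phase, at 1820 CPM in mouse 4 and 335 CPM in mouse 6. Of the 7 genes of this list 3 were tested, all higher at an edgeR unadjusted p below 0.05, where 7.37% of all genes were higher. They were Lcn2 (log2 fold change 1.90, edgeR adjusted p = 0.245), S100a8 (1.35, adjusted p = 0.253) and S100a9 (1.17, adjusted p = 0.284). Neither tool called any of them, and DESeq2 gave an adjusted p to only 1. Without Mif-2-/- Apoe-/- mice 2 and 4, a setting chosen after the data had been seen, the markers still had 7 positive and 3 negative values, with 0 called by edgeR, 5 at an unadjusted p below 0.05 and a median of 0.28. The share of all genes at that unadjusted p was not counted in this setting.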

How the data were processed

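Livers were snap-frozen and RNA was purified on RNeasy columns. The authors prepared prime-seq libraries and ran zUMIs on mm10, per the labels and methods. Raw integer counts were deposited, not normalized, with 36072 symbols per library and 28 libraries. Aligner, annotation release, use of strand and intron counting are not given in the sources used here. RNA integrity, which the study's model held as a covariate, was not used here. Positions came from GENCODE M21 on mm10.

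The 2 libraries of each mouse were summed, and the 14 mice were the replicates. Genes kept by filterByExpr were scaled by TMM and tested by the two-sided quasi-likelihood F test of edgeR 4.0.16 (R 4.3.3), and p-values were adjusted by Benjamini-Hochberg over all 9684. Errors of edgeR fold changes are SE, computed as the absolute log2 fold change over the square root of the F statistic. The 95% intervals were built from that SE with a t quantile, so they restate the unadjusted p-value and are not a separate estimate of error. Group values are mean ± SD. Named genes were all 10 markers, up to 4 genes of smallest p and any called gene from each list, and the 8 genes most like the mean of the markers. Alternatives were library totals or DESeq2 1.42.0 size factors, the DESeq2 Wald test, no filter, the study's filter, either library alone, a replicate block, rRNA and mitochondrial genes left out, and each mouse left out. The study's filter kept genes with at least 1 count in 3 mice of either group. It also dropped the 10 genes of most counts, mitochondrial and rRNA genes, and symbols that begin with Gm or end in Rik. The markers and lists were chosen with earlier results of these data known.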

Additional observations from a re-analysis of the deposited data

Results flagged for a closer look

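Kdr in Mif-2-/- Apoe-/- mouse 2 stood apart from the rest of its group, at 8.61 CPM from 8 counts, 3 and 5 in its 2 libraries, where the other 6 Mif-2-/- Apoe-/- mice had 24.4 to 34.5 CPM. The gap to the nearest mouse was 0.61 of the group's whole range, above the critical value of Dixon's test for 7 samples. Of 20 groups checked, the 10 markers in each genotype, this was the 1 that stood out, and chance alone gives about 1 in 20. This mouse also had the lowest total count and the highest ribosomal RNA share, 51.8%. Their part in the low value was not tested.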

How the results depend on the processing

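The signs of the markers depended little on the processing. Of 249 values of single markers under the alternatives, 245 kept their sign and their side of the threshold, counting 10 by sign alone for which DESeq2 gave no adjusted p. Pecam1 changed sign in 3, at 0.11 with the duplicate library only, 0.027 without Mif-2-/- Apoe-/- mouse 1 and 0.050 without Mif-2-/- Apoe-/- mouse 7, and leaving out each mouse gave it -0.17 to 0.050. Clec4g was called with no filter on low counts (0.76, edgeR adjusted p = 0.0254), which made the number of called markers 1, while leaving out each mouse in turn gave 0 to 0. Bmp2 could not be tested in the duplicate library alone. The median of the markers was 0.25 to 0.39 without each mouse in turn.

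Called genes among all tested numbered 21, but 97 by the DESeq2 Wald test, 344 with no filter, 11 with the first library only, and, in choices made after the data were seen, 34 without Mif-2-/- Apoe-/- mice 2 and 4 and 148 by DESeq2 without Mif-2-/- Apoe-/- mouse 3. Leaving out each mouse in turn gave 7 to 118, with 118 without Mif-2-/- Apoe-/- mouse 2, 7 without Mif-2-/- Apoe-/- mouse 6, 8 without Apoe-/- mouse 3 or 4, and 9 without Mif-2-/- Apoe-/- mouse 7 or Apoe-/- mouse 1. Scaling by library totals moved the median of all genes by -0.11 and gave 7 higher and 14 lower calls against 13 and 8, while the markers kept 7 positive and 3 negative values with a median of 0.23.

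With the replicate number as a block, 14 genes and 0 markers were called and the markers' median was 0.31, and Timd4 and Zfp36 were no longer called (adjusted p = 0.123 and 0.102). The sources used here do not say whether equal numbers mark paired mice. Of 7 equal-numbered pairs 2 correlated above 0.1 (-0.43 to 0.15), and 2 of 14 mice correlated best with their own number. So few pairs cannot settle whether the mice were paired. Each marker rested on 7 to 139 counts per mouse, and the 95% intervals of Stab1, Stab2, Kdr, Pecam1, Bmp2 and Dnase1l3 took in 0.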

Other observations

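Over the 14 mice centred on their group means, the genes most like the mean of the 10 markers, of 7288 with at least 10 CPM, were Gm20369 (Pearson r = 0.84), Nudt19 (0.83), Tmem234 (0.82), Mtx1 (0.81), Erp44 (0.80), Cggbp1 (0.79), Ifrd2 (0.78) and Gm10131 (0.77). None of these 8 belongs to an endothelial list used here. Nudt19, a peroxisomal nucleotide hydrolase, had 23.2 ± 5.52 CPM in Mif-2-/- Apoe-/- mice and 16.4 ± 4.16 CPM in Apoe-/- mice (log2 fold change 0.52, edgeR adjusted p = 0.245). Erp44, a chaperone of the early secretory pathway, had 45.5 ± 10.1 CPM in Mif-2-/- Apoe-/- mice and 39.8 ± 7.83 CPM in Apoe-/- mice (0.21, adjusted p = 0.585). The points share libraries, depth and ribosomal RNA share, and the likeness is a description.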
